A study of Rattus norvegicus with 10 samples.

Results

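The genes described here are 10 that are used as markers of reactive astrocytes and of the response of brain tissue to injury: Gfap, Vim, Aspg, Lcn2, Serpina3n, Steap4, Hspb1, Cp, A2m and Emp3. They were chosen by name with earlier results of the same rats in view, out of 16610 gene symbols in the count table. For each symbol the RNA record with the highest mean count was used. Gfap, Vim, Aspg, Hspb1, Cp, A2m and Emp3 are also on the list of altered genes that the study drew from these samples, whereas Lcn2, Serpina3n and Steap4 are not. The study's edgeR test gave each of them that is on its list an adjusted p under 0.05, which none reached in the main test here. For Cp the study's value belongs to another RNA record than the one used here. The number of controls behind that list is not clear. For mRNA profiling the study gives fewer of them than the labels do. Elsewhere its methods include as many control rats as the labels give. The study describes its edgeR test as Bayesian shrinkage, whereas the main test here was the quasi-likelihood test of edgeR. The exact test of edgeR also put 0 of the 10 genes under an adjusted p of 0.05 here. Why the adjusted p differs from that of the study was not tested. The difference between injured and control rats in these genes is therefore a description and not independent evidence of its direction.

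Poly-A RNA from the left hippocampus was sequenced in 10 adult male Sprague-Dawley rats, to ask which transcripts differ long after a brain injury. In 5 rats traumatic brain injury (TBI) was induced by lateral fluid percussion, a pressure pulse of 3.32 atm on average that was delivered to the intact dura through an opening over the left parietal lobe. The 5 sham rats had the same anaesthesia and the same opening of the skull without the pulse, so both groups carried the surgery. Tissue with CA3 and dentate gyrus was taken 3 months later, and each library is 1 rat. The sample labels call the tissue dorsal hippocampus. By the methods of the study, no EEG was recorded in the injured rats, so whether a rat had seizures is not known here.

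Astrocytes answer injury of the brain by a graded change of state called reactive gliosis. They enlarge, strengthen their intermediate filament skeleton and switch on secreted protease inhibitors, metal-binding proteins and small heat shock proteins. Cytokines of the interleukin-6 family act through the receptor subunit gp130 and the transcription factor STAT3 to drive much of this program, with NF-kB and AP-1 factors as further inputs. In the hippocampus, gliosis is a known feature of chronic injury and of epilepsy.

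The libraries held 23425817 to 31671838 counts, of which ribosomal RNA took 12.5% to 26.2% in 8 rats but 59.0% in sham 4 and 58.5% in sham 5. No TBI rat had such a share, so a part of any group difference cannot be told apart from it. Counts outside ribosomal RNA ranged from 12686398 to 24735107. Levels are given as CPM, that is counts scaled to a library size adjusted by the TMM method, and 1 count was worth 0.0259 to 0.0680 CPM. Because transcripts differ in length, the CPM of different genes were not compared with each other. The summed marker genes of neurons, CA3 and dentate granule cells were detected in every rat. Chgb (mean 568 CPM in sham rats) and Cpne4 (251 CPM) made up most of the CA3 sum. Detection of a sum therefore does not decide which fields the tissue held. Of the single markers, Tdo2 of dentate granule cells had counts in sham 2, TBI 2 and TBI 5 only. Iyd of CA3 had none in TBI 3 and TBI 5. The dentate granule sum ranged from 54.5 CPM (sham 1) to 190 CPM (sham 5) in sham rats. In TBI rats it ranged from 74.8 CPM (TBI 5) to 185 CPM (TBI 3). The 3 tested dentate markers were lower in TBI rats, 0 of them at an unadjusted p under 0.05 in edgeR. The share of dentate gyrus in each piece was not tested.

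A few of the promoters are shown because they hold a match to a binding motif that is tied to this response. They are the 250 bases before the transcription start in RefSeq on the build GRCr8, written 5′ to 3′ along the gene, and RefSeq gave such a sequence for 9 of the 10 genes, all but A2m. Capitals mark matches to the STAT motif TTCNNNGAA, the AP-1 motif TGANTCA or the heat shock motif GAANNTTC. The Serpina3n stretch lies at chr6:129088142-129088391 on the plus strand, that of Steap4 at chr4:27054770-27055019 on the minus strand, that of Hspb1 at chr12:26432302-26432551 on the minus strand and that of Aspg at chr6:136997773-136998022 on the plus strand.
Serpina3n: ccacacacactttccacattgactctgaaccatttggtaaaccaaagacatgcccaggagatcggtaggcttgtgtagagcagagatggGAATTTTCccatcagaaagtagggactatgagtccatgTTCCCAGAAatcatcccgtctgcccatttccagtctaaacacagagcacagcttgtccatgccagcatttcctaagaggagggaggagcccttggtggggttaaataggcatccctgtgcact
Steap4: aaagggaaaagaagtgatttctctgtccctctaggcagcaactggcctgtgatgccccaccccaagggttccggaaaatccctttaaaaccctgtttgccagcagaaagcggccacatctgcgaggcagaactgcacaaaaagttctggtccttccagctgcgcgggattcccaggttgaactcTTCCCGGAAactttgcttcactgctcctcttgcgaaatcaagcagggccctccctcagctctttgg
Hspb1: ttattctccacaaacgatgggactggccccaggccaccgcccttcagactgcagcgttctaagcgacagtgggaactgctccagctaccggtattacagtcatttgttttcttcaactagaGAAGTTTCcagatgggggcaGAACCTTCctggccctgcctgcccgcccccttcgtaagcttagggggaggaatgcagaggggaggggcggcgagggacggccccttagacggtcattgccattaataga
Aspg: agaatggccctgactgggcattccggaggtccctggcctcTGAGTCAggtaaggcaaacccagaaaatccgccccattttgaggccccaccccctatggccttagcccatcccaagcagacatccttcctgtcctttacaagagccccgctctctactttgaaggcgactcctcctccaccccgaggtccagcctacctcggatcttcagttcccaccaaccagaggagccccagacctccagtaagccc

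The STAT motif was found in Serpina3n and Steap4, and in 7.52% of the 27457 rat promoters searched over the same length on both strands. The heat shock motif was found in Serpina3n and at 2 places in Hspb1, and in 7.02% of all promoters. Aspg held the AP-1 motif, present in 6.36% of all promoters. Steap4 also held the NF-kB motif, present in 4.28%, and the C/EBP motif TTGCNNAAT, present in 2.29%. The TATA motif TATAAA was in Emp3, Cp and Vim, and in 13.1% of all promoters. None of these motifs overlapped another in the stretches shown. A match of letters is a description only, and nothing was measured here on the binding of a factor.

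Of the 10 genes, 8 had higher levels in TBI rats and 2, Serpina3n and Steap4, had lower levels. The median of the fitted log2 changes of TBI over sham was 0.85, and it was -0.01 over all 22431 RNA records tested. A value at or above 0.85 was found in 0.771% of the records. None of the 10 genes passed an adjusted p of 0.05 in the quasi-likelihood test of edgeR with Benjamini-Hochberg adjustment over all records, and no record of the table did, so that the share called was 0%. The Wald test of DESeq2 called 3 records and none of the 10 genes. The adjusted p of the 10 genes ranged from 0.478 to 0.978. At an unadjusted p under 0.05, 8 genes were higher and 1 was lower, where 4.89% of all records were higher and 3% were lower. In 0 of the 10 genes did the groups fail to overlap, against 0.923% of all records. These genes were chosen with this contrast in view, so nothing is read from the counts.

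**Figure D1:**
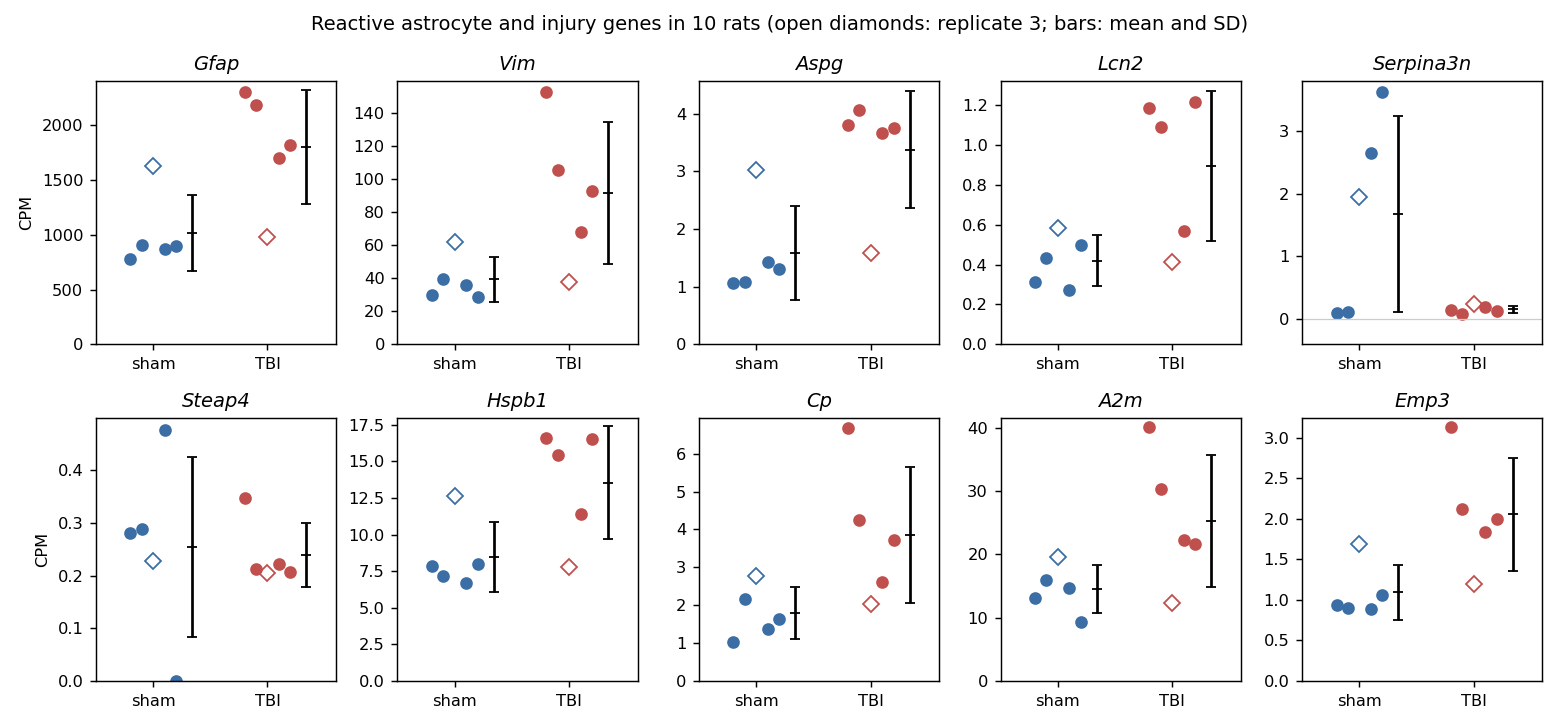
Level of each of the 10 genes (y axis, CPM, a scale of its own for each gene) in 5 sham rats (blue) and 5 TBI rats (red), with the mean and SD at the side and replicate 3 of each group as an open diamond. In Gfap the sham rats ran from 776 to 1628 CPM and the TBI rats from 979 to 2307 CPM, and in Serpina3n only 3 sham rats stood above 1 CPM.

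The filament genes come first. Gfap encodes glial fibrillary acidic protein, the intermediate filament protein by which astrocytes are usually recognised. Its level in the sham rats was 776, 910, 1628, 871 and 895 CPM (rats 1 to 5). In the TBI rats it was 2307, 2191, 979, 1704 and 1819 CPM. TBI 1, 2, 4 and 5 lay above all sham rats, TBI 3 lay among them, and sham 3 stood far above the other sham rats. The means were 1016 CPM ± 346 (SD, n = 5) and 1800 CPM ± 523 (SD, n = 5), a ratio of 1.77, with a log2 change of 0.82 (SE 0.27) and an edgeR adjusted p of 0.514.

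Vim encodes vimentin, which joins with glial fibrillary acidic protein in the filaments of reactive astrocytes and is also made by endothelial, ependymal and connective tissue cells. The sham rats had 29.96, 39.6, 62.1, 36.1 and 28.9 CPM. The TBI rats had 153, 106, 37.6, 68.4 and 93.2 CPM. The TBI rats had the same order as in Gfap: TBI 1 was highest and TBI 3 lay within the sham range. The means of the groups were 39.3 CPM ± 13.5 (SD, n = 5) and 91.6 CPM ± 43.2 (SD, n = 5), TBI over sham a ratio of 2.33. The log2 change was 1.21 (SE 0.38, edgeR adjusted p 0.522), the highest fitted value of the 10 genes.

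Of the enzymes and stress proteins, Aspg encodes an asparaginase that is known as a marker of reactive astrocytes. Its level was 1.06, 1.08, 3.02, 1.43 and 1.31 CPM in sham and 3.80, 4.07, 1.58, 3.67 and 3.75 CPM in TBI rats. Within each group 4 rats were close together, and replicate 3 lay near the values of the other group. The means of 1.58 CPM ± 0.821 (SD, n = 5) and 3.37 CPM ± 1.01 (SD, n = 5) gave a ratio of 2.14 and a log2 change of 1.07 (SE 0.32, edgeR adjusted p 0.487).

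Hspb1 encodes the small heat shock protein HSP27, a chaperone that binds unfolded proteins and filaments. It stood at 7.83, 7.15, 12.6, 6.66 and 7.996 CPM in sham rats. It stood at 16.6, 15.4, 7.77, 11.4 and 16.5 CPM in TBI rats. TBI 1, 2 and 5 lay above all sham rats, and sham 3 above TBI 4. The mean was 8.46 CPM ± 2.40 (SD, n = 5) against 13.5 CPM ± 3.86 (SD, n = 5), a log2 change of 0.67 (SE 0.23, edgeR adjusted p 0.548).

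Emp3 encodes a membrane protein of the PMP22 family. Its sham levels were 0.936, 0.898, 1.69, 0.884 and 1.06 CPM, and its TBI levels 3.13, 2.13, 1.20, 1.83 and 1.99 CPM. All TBI rats but TBI 3 lay above all sham rats. The fitted log2 change was 0.88 (SE 0.25, edgeR adjusted p 0.478), with means of 1.09 CPM ± 0.340 (SD, n = 5) in sham and 2.06 CPM ± 0.697 (SD, n = 5) in TBI rats.

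Among the genes for metal handling, Cp encodes ceruloplasmin, a copper-binding ferroxidase that astrocytes carry on their surface and the liver secretes. Its level was 1.03, 2.16, 2.76, 1.36 and 1.62 CPM in sham and 6.67, 4.26, 2.02, 2.62 and 3.73 CPM in TBI rats. TBI 1, 2 and 5 were above all sham rats, and TBI 3 and TBI 4 were within their range. The mean was 1.79 CPM ± 0.683 (SD, n = 5) against 3.86 CPM ± 1.80 (SD, n = 5), with a log2 change of 1.08 (SE 0.35, edgeR adjusted p 0.507). Cp was the only one of the 10 genes with a second RNA record, whose log2 change was 1.12 (SE 0.38). The records are isoforms of 1 gene and can share reads, so they are not separate measurements.

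Lcn2 encodes lipocalin 2, a secreted protein that withholds bacterial iron carriers and that reactive astrocytes and neutrophils produce. It was read at 10, 12, 18, 4 and 8 counts in sham rats and at 41, 41, 14, 18 and 47 counts in TBI rats. This was 0.312, 0.431, 0.585, 0.272 and 0.4998 CPM against 1.19, 1.09, 0.411, 0.569 and 1.22 CPM. TBI 1, 2 and 5 stood above all sham rats, TBI 4 just under sham 3 and TBI 3 within the sham range. The log2 change was 1.07 (SE 0.33, edgeR adjusted p 0.484). Of 8 neutrophil markers 1 passed the filter on low counts, and the summed level of the 7 with an RNA record was 0.227 to 0.468 CPM in sham and 0.145 to 0.466 CPM in TBI rats.

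Steap4 encodes a metalloreductase that reduces iron and copper, and it is known as a marker of reactive astrocytes. It had 9, 8, 7, 7 and 0 counts in sham and 12, 8, 7, 7 and 8 counts in TBI rats. The groups overlapped throughout, and the 0 in sham 5 allows a level of up to 0.187 CPM, by the limit of 3 counts that is set for a count of 0, and up to 0.230 CPM by the exact Poisson 95% interval. The log2 change was -0.10 (SE 0.42, edgeR adjusted p 0.978). A difference was not detectable at this depth, and the sign turned under 3 other settings of scaling or test and without sham 4.

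The protease inhibitors differed among themselves. A2m encodes alpha-2-macroglobulin, a secreted trap for proteases that is an acute phase protein in the rat. Sham rats had 13.1, 15.9, 19.6, 14.6 and 9.31 CPM, and TBI rats had 40.0, 30.3, 12.3, 22.3 and 21.6 CPM. TBI 3 lay within the sham range and the other 4 TBI rats above it. The means were 14.5 CPM ± 3.77 (SD, n = 5) and 25.3 CPM ± 10.4 (SD, n = 5), with a log2 change of 0.79 (SE 0.31, edgeR adjusted p 0.599). Its unadjusted p was under 0.05 in 4 of the 10 fits that each left out 1 rat. The level of Lrp1, the receptor that clears alpha-2-macroglobulin, had a log2 change of -0.01 (SE 0.19). Lrp1 stood at 318 CPM in TBI 5, at 635 to 770 CPM in the other TBI rats and at 559 to 686 CPM in sham rats.

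Serpina3n encodes a secreted serpin and is among the best known markers of reactive astrocytes. Sham rats had 3, 3, 60, 39 and 58 counts, and TBI rats had 5, 3, 8, 6 and 5 counts. In CPM this was 0.0936, 0.108, 1.95, 2.65 and 3.62 in sham and 0.145, 0.0798, 0.235, 0.190 and 0.129 in TBI rats. Sham 3, 4 and 5 were high, whereas sham 1, sham 2 and all TBI rats were low, so the groups overlapped. The exact Poisson 95% intervals, which cover counting error only, were 1.49 to 2.51 CPM in sham 3 and 0.0193 to 0.274 CPM in sham 1, and the upper bound in TBI 3, the highest TBI rat, was 0.462 CPM. The spread among sham rats was thus larger than counting error.

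The fitted log2 change of Serpina3n was -3.28 (SE 1.03, edgeR adjusted p 0.511). Sham 4 and sham 5 are the libraries rich in ribosomal RNA, and the shares were 26.1% in sham 3 and 26.2% in sham 1. Without sham 4 and sham 5 the log2 change was -2.20 (unadjusted p 0.0522 in edgeR), and with the ribosomal share as a covariate it was -1.82 (unadjusted p 0.101). Its relatives Serpina3c and Serpina3m, with which reads could be shared, had too few counts for the filter.

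**Figure D2:**
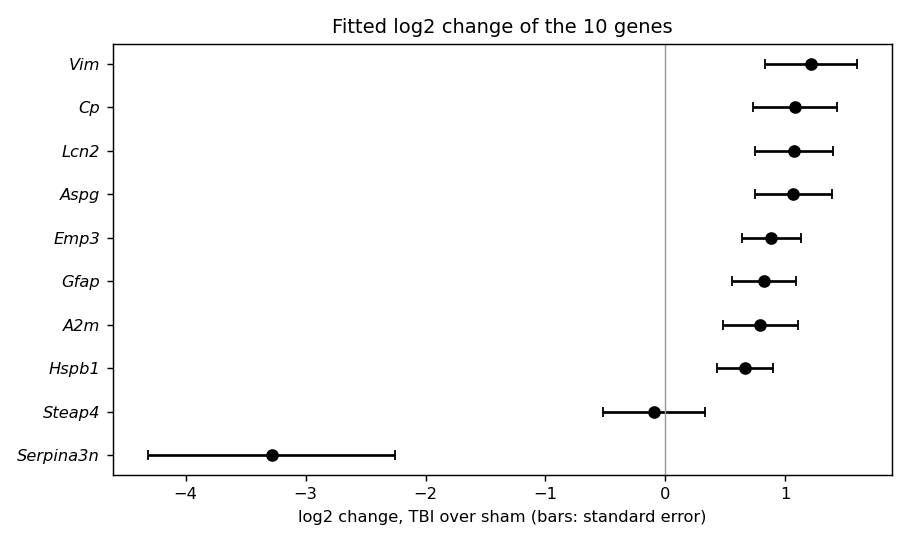
Fitted log2 change of TBI over sham (x axis) for each of the 10 genes (y axis), with bars for the standard error. The values of 8 genes lie between 0.67 and 1.21, Steap4 lies at -0.10 and Serpina3n at -3.28.

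The rats could be placed in an order by these genes. The mean of the 10 genes' log2 CPM, each centred on its own mean, was -0.72, -0.49, 0.40, -0.16 and -0.37 in sham 1 to 5. It was 0.78, 0.44, -0.40, 0.15 and 0.37 in TBI 1 to 5. Serpina3n weighed on this mean, and without it the values were -0.64, -0.40, 0.20, -0.47 and -0.75 in sham and 0.99, 0.67, -0.38, 0.25 and 0.54 in TBI rats. With Serpina3n sham 3 was above TBI 4 and TBI 5, and without it sham 3 was below both. TBI 1, 2, 4 and 5 were above 0 either way, and sham 3 was the only sham rat above 0 and TBI 3 the only TBI rat below 0. Sham 3 was the highest sham rat in 8 genes and TBI 3 the lowest TBI rat in 9. In Gfap, Vim, Cp and Emp3 the TBI rats had the same order, TBI 1, 2, 5, 4 and 3 from high to low.

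Sham 3 lay above TBI 3 in all 10 genes, which in the 8 genes with higher TBI means went against their labels. The fits were therefore also run without each of them. Without sham 3 the median log2 change was 1.09, and the log2 change was 1.06 in Gfap and 1.504 in Aspg (edgeR adjusted p 0.0740 and 0.0524). Without sham 3 the groups did not overlap in 3 genes, and without TBI 3 they did not overlap in 5, against 3.98% and 2.59% of all records. Both rats were singled out after their values were seen, and leaving out a rat that causes an overlap must raise such a count. In these fits 0 of the 10 genes passed the adjusted threshold, whereas 5 records of the table did without sham 3 and 12 without TBI 3.

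Some of the other lists, but not all, had sham 3 as the highest sham rat and TBI 3 as the lowest TBI rat. The summed microglial markers were 310 to 456 CPM in sham and 362 to 487 CPM in TBI rats, with sham 3 and TBI 3 at those places. The ependymal markers were 13.0 to 24.8 CPM in sham and 23.6 to 37.6 CPM in TBI rats, again with these rats at those places. Of 10 microglial markers 9 were higher in TBI, 4 of them at an unadjusted p under 0.05, and of 6 ependymal markers all were higher, again 4 of them. Meningeal and fibroblast markers had a sum of 12.6 to 27.0 CPM in sham and 20.3 to 30.6 CPM in TBI rats, with 7 of 8 tested markers higher, 4 of them at an unadjusted p under 0.05, and a median log2 change of 0.46. For choroid plexus the sum was 6.43 to 35.8 CPM in sham and 12.0 to 36.3 CPM in TBI rats, and 6 of 6 tested markers were higher, 1 at an unadjusted p under 0.05. In those lists the places differed: sham 3 was the lowest sham rat for choroid plexus, and sham 1 was highest and TBI 4 lowest for meninges. Of the endothelial markers 5 of 7 were higher and 0 had an unadjusted p under 0.05, and Ly6c was at 0. Blood markers had a sum of 190 to 353 CPM in sham and 275 to 430 CPM in TBI rats, with TBI 3 the highest, and all 5 were higher in TBI, 2 at an unadjusted p under 0.05. Of 7 neuronal markers 1 was higher and 6 were lower, with a median log2 change of -0.07, and sham 3 had the lowest sum of the sham rats. Without sham 3, 8 of the microglial markers were higher at an unadjusted p under 0.05, and without TBI 3 there were 6. Calls also rose over all records, from 4.89% higher and 3.00% lower in all rats. They were 7.03% and 4.41% without sham 3, and 5.88% and 3.04% without TBI 3. The same shares stand beside the counts without these rats that are given for other lists below. Vim is also made by ependymal and connective tissue cells, and the part of these cells in the levels of the 10 genes was not tested.

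**Figure D3:**
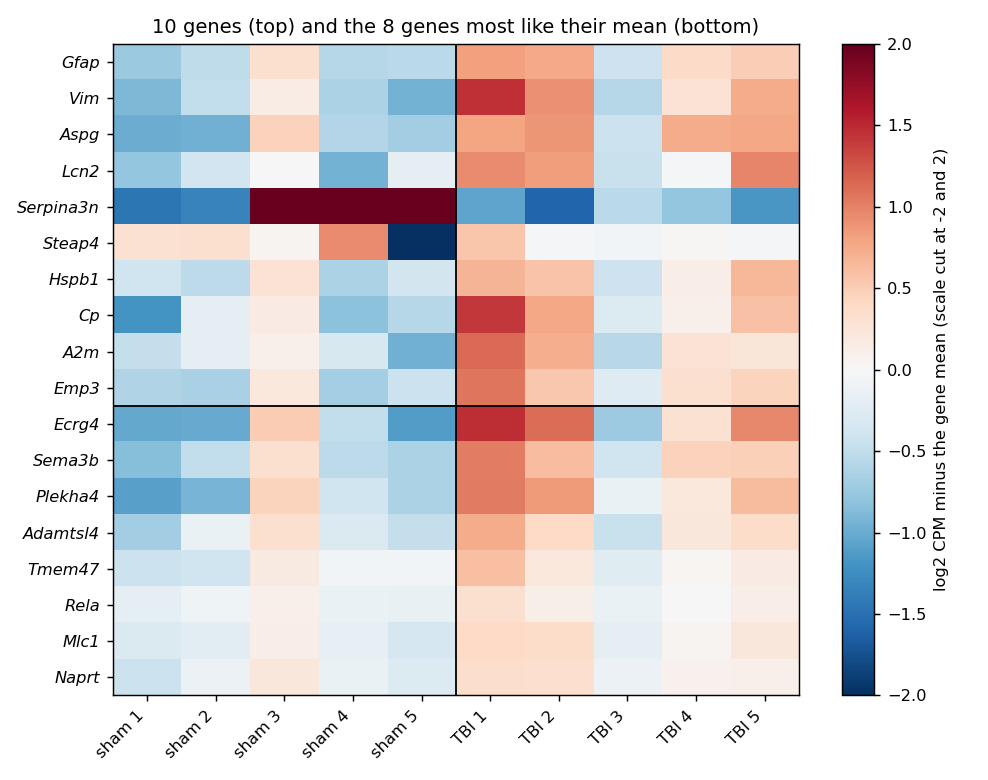
Heat map of log2 CPM minus each gene's mean (colour, drawn from -2 to 2) for the 10 genes (top) and the 8 genes most like their mean (bottom), with 1 column for each rat. Sham 3 is warmer than the other sham rats and TBI 3 cooler than the other TBI rats in most rows, and Serpina3n is warm in sham 3, 4 and 5.

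The genes whose log2 CPM was most like the mean of the 10 genes over the 10 rats, among 10705 symbols with a mean of at least 1 CPM, were Ecrg4, Sema3b, Plekha4, Adamtsl4, Tmem47, Rela, Mlc1 and Naprt. Their Pearson r ranged from 0.9498 in Naprt to 0.970 in Ecrg4. The points share libraries and depth, and the r is a description. Ecrg4 had a mean of 1.58 CPM ± 0.940 (SD, n = 5) in sham and 3.97 CPM ± 1.95 (SD, n = 5) in TBI rats. Mlc1, which encodes a membrane protein of astrocyte endfeet, had 262 CPM ± 35.7 (SD, n = 5) and 334 CPM ± 52.5 (SD, n = 5). Rela, which encodes the p65 subunit of NF-kB, had a log2 change of 0.18 (SE 0.09).

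In bulk tissue, more astrocytes and more RNA per astrocyte cannot be told apart. Counts were also set against 15 genes that resting astrocytes express, such as the glutamate transporter genes Slc1a2 and Slc1a3 and the glutamine synthetase gene Glul. This ratio does not depend on the scaling of the libraries. It does not separate cell number from RNA per cell either, since the level of those genes need not be constant. Of them 10 were higher and 5 lower in TBI rats, with a median log2 change of 0.12. For every 1000 counts of those genes there were 249 ± 82.0 (SD, n = 5) counts of Gfap in sham and 412 ± 106 (SD, n = 5) in TBI rats, and their ratio was 1.65. For Vim there were 9.62 ± 3.12 (SD, n = 5) and 20.8 ± 9.13 (SD, n = 5), a ratio of 2.17. The ratio was 2.005 in Aspg, 1.96 in Lcn2, 2.002 in Cp, 1.76 in Emp3, 1.63 in A2m and 1.49 in Hspb1. It was 0.0869 in Serpina3n and 0.904 in Steap4. Without sham 3 the ratio was 1.93 in Gfap, 2.52 in Vim and 2.57 in Aspg, and without TBI 3 it was 1.83, 2.47 and 2.26.

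**Figure D4:**
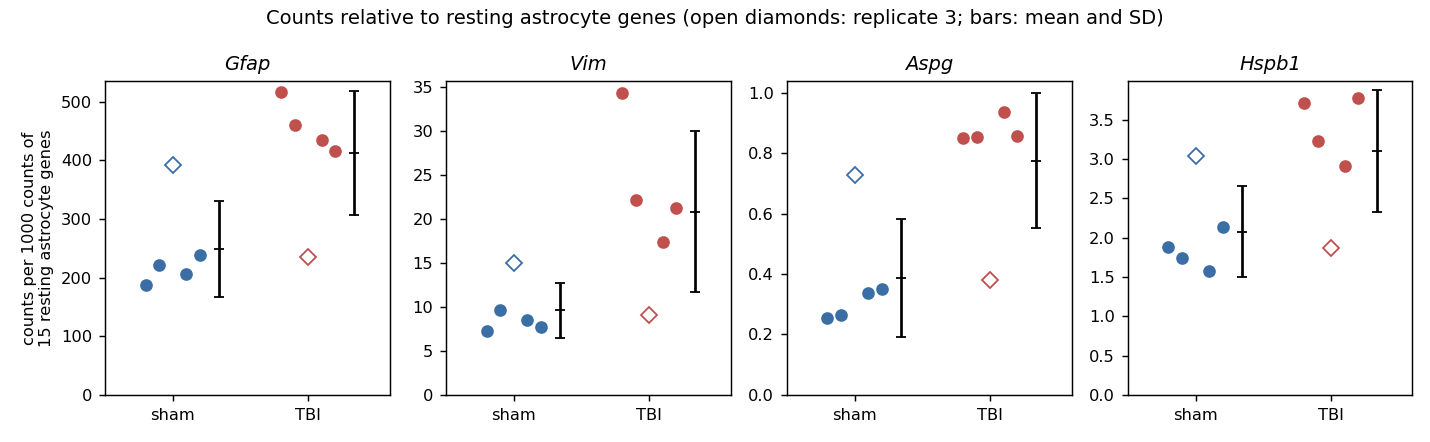
Counts of Gfap, Vim, Aspg and Hspb1 per 1000 counts of 15 resting astrocyte genes (y axis) in 5 sham rats (blue) and 5 TBI rats (red), with the mean and SD at the side and replicate 3 of each group as an open diamond. Gfap ran from 187 to 392 in sham and from 236 to 516 in TBI rats, so that the groups overlap through replicate 3 of each.

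The resting astrocyte genes themselves, 15 of 16 listed, had a median log2 change of 0.12, with 10 higher and 5 lower and 3 at an unadjusted p under 0.05, which were 5 without sham 3 and 5 without TBI 3. Their sum was 3741 to 4228 CPM in sham and 3924 to 4767 CPM in TBI rats. The genes with the smallest p were Mlc1 at a log2 change of 0.35, Aldh1l1 at 0.23, S100b at 0.19 and the water channel gene Aqp4 at 0.53. Slc1a2 was at 0.06, Slc1a3 at 0.00 and Glul at 0.00.

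Of 32 other genes of the reactive state, 28 were tested. Of these 22 were higher and 6 lower in TBI rats, with a median log2 change of 0.32. At an unadjusted p under 0.05 there were 8 higher and 0 lower, where 4.89% of all records were higher and 3% were lower. Of these 8, Gbp2, Lgals3, Serping1, Cd44 and S1pr3 are also on the study's list of altered genes from these samples. The list is thus not separate evidence, and nothing is read from its counts. In edgeR 0 of its genes passed the adjusted threshold. Those with the smallest p were the interferon-induced GTPase gene Gbp2 (log2 change 1.23, SE 0.28), Chi3l1 (0.36, SE 0.11), the galectin gene Lgals3 (1.91, SE 0.54) and the metalloproteinase inhibitor gene Timp1 (0.82, SE 0.29). Sham 3 was again the highest sham rat in the sum of this list, at 376 CPM, and TBI 3 the lowest TBI rat, at 341 CPM. Aqp4 of the resting astrocyte genes is on the study's list too, as are Cebpd, Hmox1, Tfrc, Hspb8 and Serping1 of the lists below. Those lists are thus not separate evidence either. The shares of 4.89% higher and 3% lower over all records stand beside their counts as well.

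Of the cytokine and STAT3 route 15 of 20 genes were tested, 10 higher and 5 lower, with a median log2 change of 0.12. Of these 3 were higher at an unadjusted p under 0.05: Bcl3 at 1.01, Cebpd at 0.54 and the ligand gene Cntf at 0.57. Without sham 3 there were 7 higher and 1 lower, and without TBI 3 there were 5 higher. Stat3 itself had 37.7 CPM ± 4.18 (SD, n = 5) in sham and 42.5 CPM ± 4.42 (SD, n = 5) after TBI, with a log2 change of 0.18. Il6st, which encodes gp130, was at 0.05. The ligand genes Il6, Lif and Osm had too few counts for the filter.

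Of the genes for iron and copper handling 16 of 17 were tested, 10 higher and 6 lower, with a median log2 change of 0.04. The heme oxygenase gene Hmox1 (0.61), the ferritin light chain gene Ftl1 (0.37) and the transferrin receptor gene Tfrc (-0.48) had an unadjusted p under 0.05, and 4 were higher and 1 lower both without sham 3 and without TBI 3. Tf was at 0.25. The lipocalin 2 receptor gene Slc22a17 was at 0.07 (SE 0.10), and Steap3, a relative of Steap4, at 0.04 (SE 0.12). Heph, a relative of Cp, was at -0.06 (SE 0.21).

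Relatives of the filament, small heat shock and PMP22 proteins numbered 16 tested of 19, 11 higher and 5 lower, with a median log2 change of 0.10. Hspb8 (0.44) and Pmp22 (0.21) had an unadjusted p under 0.05, and Cryab and Hspb6 were at 0.22 and 0.18. Without sham 3 there were 5 at that threshold, and without TBI 3 there were 3. Relatives of the serpins and of A2m numbered 10 tested of 17, 4 higher and 6 lower, with a median of -0.02. Serping1, the inhibitor of complement C1, was at 1.55 (SE 0.52), is also on the list of other reactive genes and was the only relative with an unadjusted p under 0.05. Nes, Synm and Emp1 of the filament and PMP22 relatives, and Osmr of the STAT3 route, are on the list of other reactive genes too. The lists and their medians are thus not fully separate.

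**Figure D5:**
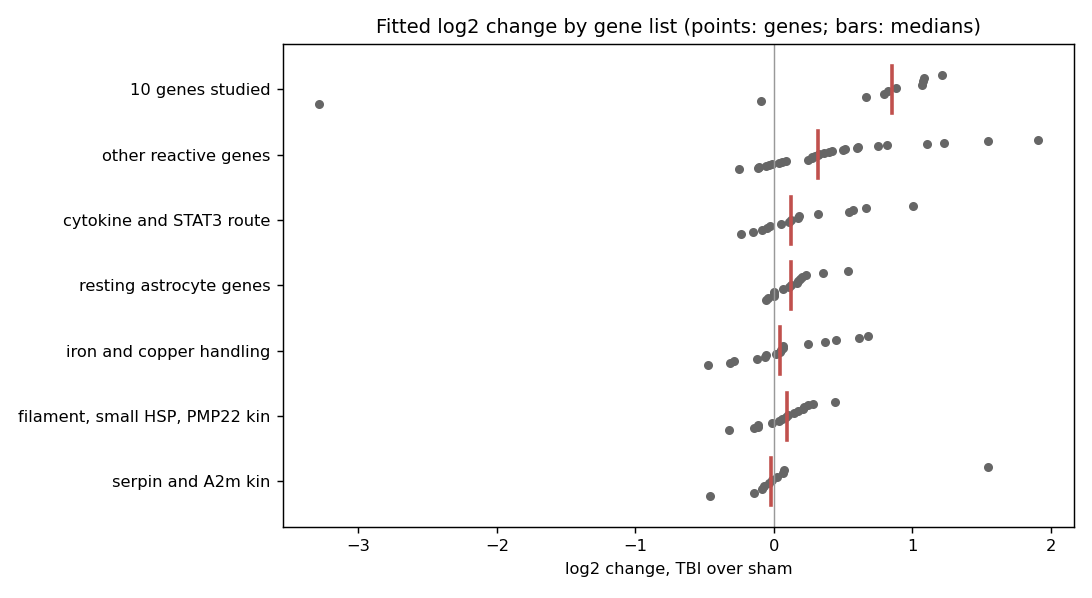
Fitted log2 change of TBI over sham (x axis) for the tested genes of 7 lists (y axis), each point a gene and each bar the median. The median was 0.85 in the 10 genes studied, 0.32 in other reactive genes, and between -0.02 and 0.12 in the remaining lists. A few genes are in more than 1 list.

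The count at an unadjusted p under 0.05 was lower in the fits that dealt with the ribosomal RNA share. It was 9 of the 10 genes in all rats, and it was 3, namely Aspg, Lcn2 and Emp3, both with the ribosomal share as a covariate and without sham 4 and sham 5. Over all records the shares higher and lower also went down, from 4.89% and 3.00% to 2.45% and 1.97% with the covariate and to 3.30% and 2.30% without those rats. The median log2 change of the 10 genes was 0.77 with the covariate and 0.76 without those rats, against 0.85 in the main fit. One fit has fewer sham rats, and the covariate is far higher in sham 4 and sham 5 than in any other rat. A loss of calls for these reasons cannot be told apart from an effect of the ribosomal share. Scaled by total counts, 8 of the 10 genes passed the adjusted threshold, Serpina3n lower and the others, all but Hspb1 and Steap4, higher. That scaling also moved the median of all records to 0.50, and at an unadjusted p under 0.05 it had 3762 records higher and 26 lower, where the TMM scaling had 1097 and 672.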

How the data were processed

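The authors deposited raw counts for each RefSeq RNA record in 10 libraries, 1 for each rat, and applied no normalization. The submitters' processing notes name BWA and the build rn4. The methods of the study name Ensembl transcripts, and how this goes with RefSeq records was not settled. Use of strand was not stated in the sources used here, so antisense and overlapping transcripts are uncertain. Of 32043 rows, 32041 were RNA records. The other 2 rows, unmapped reads (12.8% to 26.1% of reads) among them, were left out. Symbols, for 54.2% of records, came from a RefSeq table of another assembly.

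Records with a total of at least 44 counts (30th percentile) were kept, and all 10 genes passed. Groups were compared with the quasi-likelihood test of edgeR 4.0.16 (robust, TMM) in R 4.3.3, adjusted over all 22431 records. The test was tried on simulated negative binomial counts with known changes, drawn independently for each record. Such counts hold no rat that differs in many genes at once, as sham 3 does. The trial therefore does not show how the test does with such rats. Members and lists were chosen with earlier results of these data known. Named genes were mainly the 10 members and the 8 most similar symbols. From each list other than cell type markers, at most 4 genes with the smallest p were named, with direct partners or receptors. Among the serpin and A2m relatives only Serping1 was named by its p. Log2 CPM used a prior count of 2. No library was a copy of another, since the chi-square per degree of freedom over 45 pairs was at least 8.99. Alternatives were other scalings, filters and tests (DESeq2 1.42.0, limma 3.58.1 voom, the edgeR exact test), a ribosomal RNA covariate, summed rows, and leaving out rats. Ratios to resting astrocyte genes, counts for the other lists and shares of all records without sham 3 or TBI 3 were added after seeing the data. Figures were drawn with matplotlib 3.10.9.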

Additional observations from a re-analysis of the deposited data

Results flagged for a closer look

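In each group of 5 rats, values that stood far from the other 4 were sought by Dixon's criterion (a gap to the nearest rat above 0.71 of the range). Of 26 groups examined 6 had such a value. For independent groups chance would give about 1 in 20, or 1.3. The groups here share the same rats, and 4 of the 6 values come from sham 3, so 6 cannot be read against 1.3. Sham 3 was high in 4 genes: Gfap at 1628 CPM with the other sham rats at 776 to 910, Aspg at 3.02 CPM with the others at 1.06 to 1.43, Hspb1 at 12.6 CPM with the others at 6.66 to 7.996, and Emp3 at 1.69 CPM with the others at 0.884 to 1.06. TBI 3 was low in Aspg, at 1.58 CPM with the other TBI rats at 3.67 to 4.07. In Steap4, TBI 1 was high at 0.348 CPM with the others at 0.205 to 0.221, which at 12 counts against 7 or 8 is a small number of reads. The cause was not tested.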

How the results depend on the processing

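No paired analysis was possible because the rats were numbered in accession order, which pairs none of them. Of the main counts and medians, 104 values under an alternative kept within their limits and 13 did not. With scaling by total counts, 92 records and 8 of the 10 genes passed the adjusted threshold (0 and 0 in the main test), the median log2 change was 1.32 and 17 other reactive genes had an unadjusted p under 0.05 (main 0.85 and 8). That scaling put the median of all records at 0.50, and scaling by counts outside ribosomal RNA at 0.14, and it moved the unadjusted calls from 1097 higher and 672 lower to 3762 and 26, or to 2801 and 99. The Wald test of DESeq2 called 3 records. With the ribosomal share as a covariate 3 of the 10 genes and 3 other reactive genes had an unadjusted p under 0.05, and without sham 4 and sham 5 there were 3 and 4. Leaving out each rat gave 0 to 12 records and 0 to 0 of the 10 genes past the adjusted threshold, 8 to 9 genes and 6 to 11 other reactive genes at an unadjusted p under 0.05, medians of 0.70 to 1.09, and 0 to 5 genes whose groups did not overlap, the highest without TBI 3 or sham 3. Steap4, at -0.10, turned to 0.41 with total counts, 0.039 with counts outside ribosomal RNA and 0.085 with voom, and leaving out each rat gave -0.33 to 0.10, the highest without sham 4. The cause was not tested. The filterByExpr filter removed Serpina3n and Steap4, which have no value there. Low counts limit Steap4, Lcn2 and Serpina3n.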

Other observations

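Serpina3n was set apart from the other genes, and the genes most like it were sought in the same way, after its values had been seen. Over the 10 rats and 10717 symbols, the highest Pearson r of log2 CPM with Serpina3n was 0.929 in Acnat2, followed by 0.910 in H4c14, 0.900 in Ppp1r1c and 0.900 in Adcy8. The points share libraries and depth.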
